A study of Homo sapiens with 4 samples.

Results

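The mitochondrial protein import machinery is the set of translocases, chaperones, insertases and proteases that bring nuclear-encoded proteins into mitochondria. The set of 44 genes was chosen by name, from the TOM, TIM, SAM and MIA pathways with the porins and the presequence proteases, out of 62700 annotated genes. By the location of their proteins, 15 members belonged to the outer membrane, 8 to the intermembrane space, 16 to the inner membrane, 4 to the matrix and 1, TOMM34, to the cytosol.

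RNA came from HEK293T cells, a clonal line derived from human embryonic kidney cells, which carried a V5-tagged PRADA construct under a CMV promoter, directed to the mitochondrial matrix. PRADA is a proximity method, and libraries were made after ribosomal RNA depletion and, by the wording of the design, after enrichment of labelled material. In the labelled group (2 libraries) the reaction was started by D-amino acid at 10 mM for 30 min, which the unlabelled group (2 libraries) did not get. The 4 libraries shared the construct, 100 µM of the uridine analogue 4-thiouridine (s4U), given for 5 h beforehand and kept in the medium, and 0.5 mM alkyne phenol for 30 min. Libraries of a group are numbered as biological replicates, with no word on whether they came from separate cultures, and every p-value rests on the spread among these 4 libraries, which may be technical. The cell line is 1 stable clone and the strong CMV promoter drives the construct.

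Most mitochondrial proteins are made on cytosolic ribosomes and enter through the TOM channel of the outer membrane. From there the SAM complex inserts beta-barrel proteins into the outer membrane, the MIA pathway oxidises small proteins in the intermembrane space, the TIM22 complex inserts carriers into the inner membrane, and the TIM23 complex with its ATP-driven motor pulls presequence proteins into the matrix. The mRNAs of all these components are transcribed in the nucleus and lie outside the matrix, although some mRNAs of mitochondrial proteins are known to associate with the outer membrane.

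The labelled libraries held 9380258 and 12287451 assigned fragments, and the unlabelled libraries held 8172347 and 5771795. The unlabelled libraries stood further apart than the labelled ones: over the import genes tested the median absolute log2 difference was 0.07 between the labelled and 0.23 between the unlabelled libraries, and over all genes tested it was 0.14 and 0.25. The construct's own transcript was not analysed here. Of markers for HEK293T, VIM (vimentin) stood at 187 and 182 CPM (counts per 1000000 fragments, scaled by the TMM method) in labelled and 216 and 179 CPM in unlabelled libraries, and the developmental kidney factor PAX2 between 8.90 and 13.6 CPM in all 4. The 6 HEK293T genes summed to 234 to 238 CPM in labelled and 220 to 273 CPM in unlabelled libraries, mostly from VIM. Of the blood markers, HBB and CD3E were at 0 in all 4 libraries, PTPRC had 0 fragments in both labelled libraries and 1 in each unlabelled library, and HBA1 stood at 0.933 and 0.673 CPM in labelled and 0.111 and 1.36 CPM in unlabelled libraries. The 5 fibroblast and endothelium markers summed to 20.9 to 21.0 CPM in labelled and 12.8 to 20.8 CPM in unlabelled libraries, mostly from COL1A1, with DCN at 0.

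The promoters of import genes often carried letters recognised by regulators of mitochondrial genes. RefSeq windows (GRCh38.p14, 250 bases before to 50 after the start of a gene) were found for 40 of the 44 members. The motif of nuclear respiratory factor 1 (NRF1), searched as GCGCA, any base and GCGC, was present on either strand in 10 of 40 members (25%), against 6.98% of 27305 genes in that table and 12.6% of 11951 of them that were tested here. The ETS-family core CCGGAAG, also searched on both strands, which is bound by GABP (nuclear respiratory factor 2), was in 19 of 40 members (47.5%), against 12.2% and 20.8%. The YY1 core ATGGCGG was in 9 of 40 (22.5%), against 6.66% and 11.6%, and its letters can also be the first codons of a reading frame. At least 1 of the motifs was held by 30 of 40 members and more than 1 kind by 8, matches of different kinds shared bases in 0 members, and a match is a description, not a bound site.

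The 5 stretches shown, 250 bases upstream of the start in the direction of transcription, belong to the genes with the largest fitted decrease and increase (ROMO1 and CHCHD4), a further gene with a low value in labelled libraries (TOMM7), the main import receptor (TOMM20) and a nucleotide exchange factor of the import motor (GRPEL2). Capitals mark NRF1 and ETS letters, and the starts are those of RefSeq, which can differ from the gene starts of the count table.
ROMO1, chr20:35699155-35699404, plus strand: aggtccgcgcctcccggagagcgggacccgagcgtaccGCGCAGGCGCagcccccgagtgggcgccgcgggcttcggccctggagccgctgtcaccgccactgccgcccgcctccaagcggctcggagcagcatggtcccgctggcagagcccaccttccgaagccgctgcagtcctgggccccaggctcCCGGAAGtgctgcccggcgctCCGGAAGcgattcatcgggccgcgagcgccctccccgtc
TOMM7, chr7:22822850-22823099, minus strand: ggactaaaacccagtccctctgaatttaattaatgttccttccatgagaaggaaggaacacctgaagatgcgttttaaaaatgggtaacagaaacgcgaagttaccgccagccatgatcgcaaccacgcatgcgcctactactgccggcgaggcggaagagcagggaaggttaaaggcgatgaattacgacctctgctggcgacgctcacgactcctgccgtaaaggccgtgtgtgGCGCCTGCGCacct
TOMM20, chr1:235128838-235129087, minus strand: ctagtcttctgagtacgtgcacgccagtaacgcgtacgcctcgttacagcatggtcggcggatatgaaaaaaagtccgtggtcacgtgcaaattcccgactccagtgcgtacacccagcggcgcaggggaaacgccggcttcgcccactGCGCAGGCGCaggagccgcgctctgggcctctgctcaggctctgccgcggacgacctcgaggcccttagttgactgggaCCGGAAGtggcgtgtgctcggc
CHCHD4, chr3:14124871-14125120, minus strand: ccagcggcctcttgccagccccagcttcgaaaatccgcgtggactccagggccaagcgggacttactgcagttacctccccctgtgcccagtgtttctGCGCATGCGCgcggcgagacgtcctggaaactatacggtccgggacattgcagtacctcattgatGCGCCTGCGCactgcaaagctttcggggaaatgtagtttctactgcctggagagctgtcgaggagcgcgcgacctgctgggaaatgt
GRPEL2, chr5:149345249-149345498, plus strand: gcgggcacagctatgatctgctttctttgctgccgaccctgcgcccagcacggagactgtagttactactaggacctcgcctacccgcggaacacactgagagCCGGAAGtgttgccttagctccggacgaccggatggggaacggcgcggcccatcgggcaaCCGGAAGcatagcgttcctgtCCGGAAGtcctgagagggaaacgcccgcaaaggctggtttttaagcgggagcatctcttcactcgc
CHCHD4 held 2 NRF1 matches, and ROMO1, TOMM7 and TOMM20 held 1 each. GRPEL2 held 3 ETS matches and ROMO1 held 2, while TOMM20 held 1. GRPEL2 has its NRF1 letters after the start, outside the printed stretch. In the comparison of labelled with unlabelled libraries given next, the median log2 fold change was -0.04 for members with the NRF1 letters and 0.08 for those without. With and without the ETS letters it was 0.03 and 0.08, and with and without the YY1 letters 0.14 and 0.03, so the direction differed by motif. Genes with the NRF1 letters lay on both sides of 0, ROMO1 and TOMM7 below and CHCHD4 and GRPEL2 above.

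Import genes took close to the same share of fragments outside the mitochondrial chromosome with and without labelling. Together the 44 genes took 0.270% and 0.254% of all assigned fragments in labelled libraries, against 0.337% and 0.321% in unlabelled libraries. The groups did not overlap on that scale, with a ratio of 0.795, while the mitochondrial chromosome took 27.0% and 30.9% of fragments in labelled and 9.04% and 10.4% in unlabelled libraries. With fragments of the mitochondrial chromosome set aside, the import genes took 0.370% and 0.367% in labelled and 0.370% and 0.359% in unlabelled libraries, a ratio of 1.01. On this second scale the groups overlapped and the means differed by less than the spread between unlabelled libraries (0.368% ± 0.00207 labelled and 0.365% ± 0.00805 unlabelled, SD, n = 2 each). In these bulk libraries, fewer cells with a transcript, less of it per cell and less of it captured cannot be told apart.

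**Figure D1:**
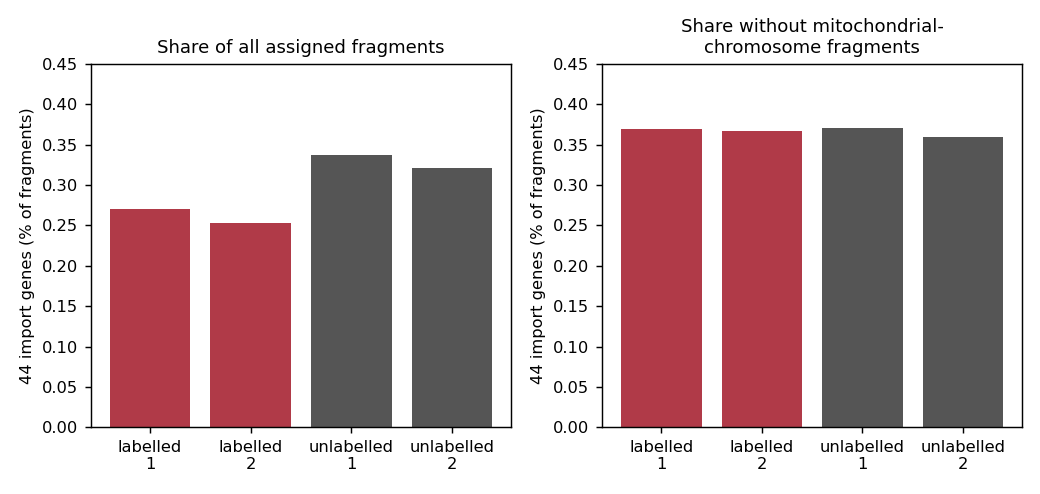
Share of fragments taken by the 44 import genes in each library, in percent, of all assigned fragments (left) and of fragments outside the mitochondrial chromosome (right). The labelled bars are lower on the left (0.270% and 0.254% against 0.337% and 0.321%) and level with the unlabelled bars on the right (0.370% and 0.367% against 0.370% and 0.359%).

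Gene by gene, none of the 42 members that passed the count filter was called between labelled and unlabelled libraries. The test was edgeR's quasi-likelihood fit over 18973 genes with Benjamini-Hochberg adjustment and a threshold of 0.05, which called 0.285% of all genes (0.269% higher and 0.0158% lower), and the smallest adjusted p among members was 0.128, for ROMO1. DESeq2 called 0 members, beside 0.332% higher and 0.100% lower of all genes. At an unadjusted p under 0.05 there were 9 members (21.4%), 5 higher and 4 lower, against a background of 11.5% (5.67% higher and 5.88% lower), and DESeq2 had 5. Groups did not overlap for 25 members (59.5%), 13 higher and 12 lower, against a background of 44.6% of all genes. Log2 fold changes were above 0 for 25 of 42 members, against 9098 of 18973 genes in all, with medians of 0.06 and -0.01 and members running from -0.75 to 0.55. The quartiles were -0.16 and 0.20 over members and -0.23 and 0.17 over all genes. For 41 of 42 members the 95% interval of the log2 fold change stayed inside -1 to 1. The exception was ROMO1, whose interval ran from -1.11 to -0.38. By comparison, the 13 mitochondrially encoded mRNAs had a median of 1.96, and 0 of the 42 import genes had an interval that reached it. These 13 mRNAs ran from 0.36 to 2.42, so the lowest lay below CHCHD4 at 0.55. The same test called 4 of the 13, so it also left mRNAs with high fold changes uncalled.

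**Figure D2:**
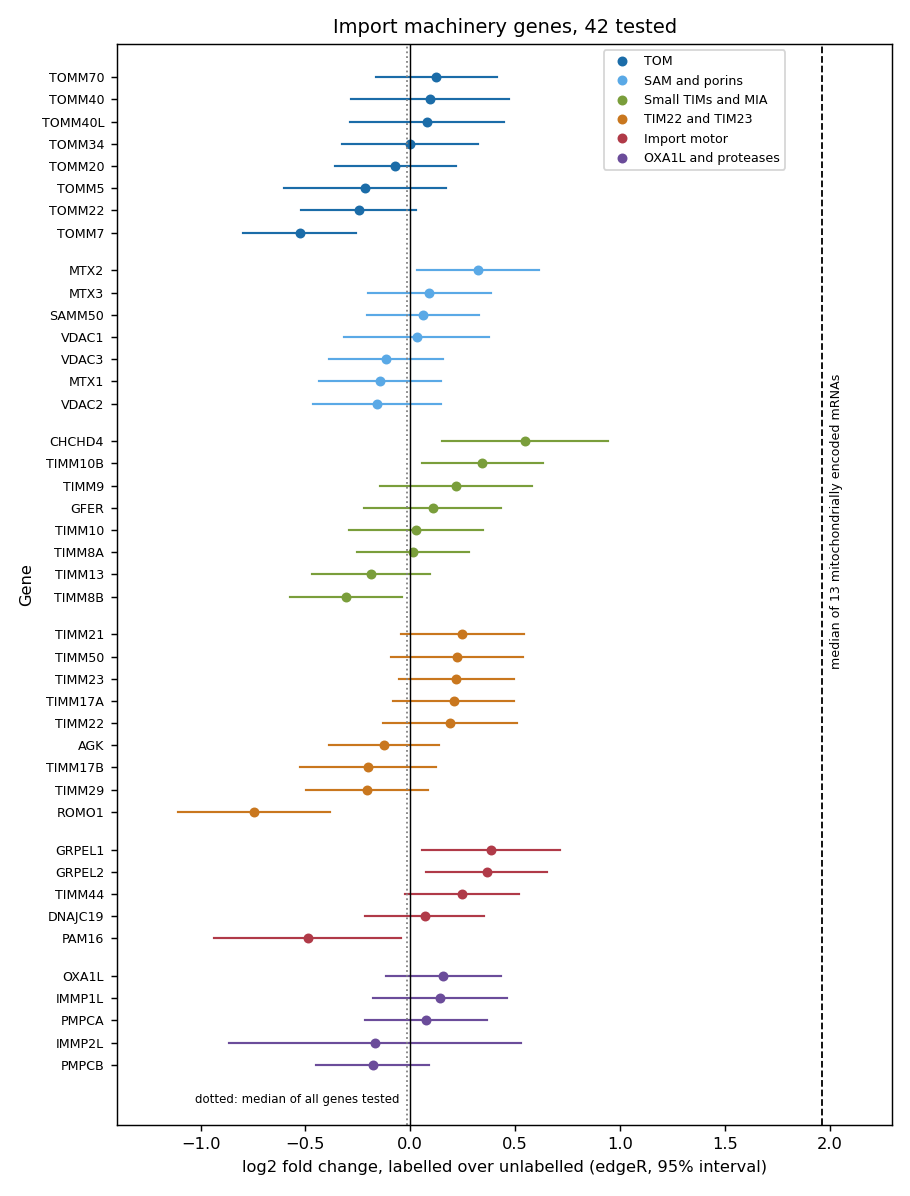
Log2 fold change of labelled over unlabelled libraries for each of the 42 tested members, with 95% intervals from the edgeR fit, grouped by complex. All points lie between -0.75 (ROMO1) and 0.55 (CHCHD4), far from the dashed line at the median of mitochondrially encoded mRNAs (1.96, range 0.36 to 2.42).

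The median of outer membrane members lay slightly below that of inner membrane members, while their ranges overlapped. Median log2 fold changes were -0.02 for the 14 outer membrane genes tested, with 7 above and 7 below 0. They were 0.14 for the 15 inner membrane genes, with 9 above and 6 below 0. Quartiles were -0.15 and 0.09 over outer and -0.19 and 0.21 over inner membrane genes, so the lower quartile was lower for inner membrane genes. Outer membrane genes ran from -0.53 to 0.32 and inner membrane genes from -0.75 to 0.25. Scaled by library size alone they were -0.38 and -0.21, beside -0.37 for all genes. The difference of medians was -0.16, and over the 4 pairings of a labelled with an unlabelled library it ran from -0.21 to -0.01 with an SD of 0.09. It kept its sign in all 12 alternative fits, at -0.19 to -0.09. The pairings share libraries and the fits reuse the same counts, so neither gives independent repeats, and the SD is not a spread between replicates. No test was made of this difference, since a score over genes chosen by name gets none, and 2 against 2 libraries allow no permutation p below 0.333. Groups did not overlap for 6 of 14 outer membrane genes (1 higher, 5 lower) and 12 of 15 inner membrane genes (8 higher, 4 lower), beside 22.2% higher and 22.4% lower over all genes. The 8 intermembrane space genes had a median of 0.07 and the 4 matrix genes 0.22. As shares of fragments outside the mitochondrial chromosome, outer membrane genes took 0.162% and 0.163% in labelled and 0.173% and 0.160% in unlabelled libraries, so these groups overlapped. Inner membrane genes took 0.107% and 0.105% in labelled and 0.101% and 0.103% in unlabelled libraries, which did not overlap.

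In the TOM complex, fitted changes of the receptor TOMM20 and the channel TOMM40 were smaller than their errors, and the small subunit TOMM7 was lower in both labelled libraries without passing the test. TOMM20 (chromosome 1, 235109341 to 235128837), the receptor that binds presequences, stood at 222 and 219 CPM in labelled and 229 and 234 CPM in unlabelled libraries, a log2 fold change of -0.07 ± 0.13 (SE; edgeR adjusted p 0.869). TOMM40 (chromosome 19, 44890569 to 44903689), the beta-barrel pore, stood at 246 and 233 CPM in labelled and 265 and 183 CPM in unlabelled libraries, so the groups overlapped and the spread came from the unlabelled side. TOMM7 (chromosome 7, 22812628 to 22822849), a small subunit that helps regulate assembly and dynamics of the pore complex, stood at 42.3 and 46.4 CPM in labelled against 64.7 and 63.2 CPM in unlabelled libraries. The groups were well separated, with a log2 fold change of -0.53 ± 0.12 and an edgeR adjusted p of 0.156. TOMM22 (chromosome 22, 38681957 to 38685421), the central receptor and organiser of the complex, stood at 54.7 and 61.0 CPM in labelled against 70.5 and 66.7 CPM in unlabelled libraries (-0.25 ± 0.13, adjusted p 0.477). TOMM70, the receptor for carrier precursors, and TOMM40L, a TOMM40 paralog, had log2 fold changes of 0.12 and 0.08 with overlapping groups, and the small subunit TOMM5 had -0.22. TOMM34, a cytosolic cochaperone of import, stood at 0.00. TOMM6 had 0 fragments in every library, but all 637 of its exonic bases are shared with the annotated gene ENSG00000124593 on its strand or with USP49 on the other, and fragments over shared bases stay unassigned.

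Of the porin and SAM genes, MTX2 was higher and VDAC3 lower in both labelled libraries, and neither passed the test. MTX2 (chromosome 2, 176269395 to 176338025), a metaxin of the SAM complex, stood at 28.1 CPM in each labelled library and at 22.4 and 22.5 CPM in the unlabelled libraries. Its log2 fold change was 0.32 ± 0.13, with an unadjusted p of 0.0320 and an edgeR adjusted p of 0.396. VDAC1 (chromosome 5, 133971871 to 134004975), the most abundant porin, stood at 185 and 209 CPM in labelled and 219.8 and 165 CPM in unlabelled libraries, a fully overlapping pattern. VDAC2 (chromosome 10, 75210154 to 75231448), the isoform tied to the retention of BAK in the outer membrane, stood at 138 and 143 CPM in labelled and 173 and 140.0 CPM in unlabelled libraries. VDAC3, the third porin, stood at 81.2 and 81.1 CPM in labelled against 93.0 and 82.7 CPM in unlabelled libraries, a log2 fold change of -0.12 with groups that did not overlap. The remaining SAM genes were SAMM50, the beta-barrel core, at 0.06, MTX3 at 0.09 and MTX1 at -0.15, all with overlapping groups.

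Of the 8 intermembrane space genes, 6 had log2 fold changes above 0 and 2 below, and none was called. Groups did not overlap for 2 higher and 2 lower genes, beside 22.2% higher and 22.4% lower over all genes tested. CHCHD4 (chromosome 3, 14112077 to 14124870), the oxidoreductase at the centre of the MIA pathway, stood at 20.2 and 20.3 CPM in labelled against 15.9 and 11.5 CPM in unlabelled libraries. The log2 fold change of 0.55 ± 0.18 was the largest above 0 among members with all 4 libraries, with an unadjusted p of 0.0108 and an edgeR adjusted p of 0.312. It was 0.35 without unlabelled replicate 2, below GRPEL2 at 0.49, and 0.20 when scaled by library size alone. GFER, the sulfhydryl oxidase that reoxidises CHCHD4, had 0.11 with overlapping groups, and 41.5% of its exonic bases lie under a gene on the other strand. TIMM10B (chromosome 11, 6481501 to 6484681), a small TIM that docks to the TIM22 complex, stood at 45.6 and 45.3 CPM in labelled against 38.8 and 32.6 CPM in unlabelled libraries (0.34 ± 0.13, adjusted p 0.369). TIMM8B (chromosome 11, 112084800 to 112086798), a small TIM chaperone, went the other way, at 50.02 and 50.8 CPM in labelled against 60.5 and 64.4 CPM in unlabelled libraries (-0.31 ± 0.12, adjusted p 0.382). TIMM13 (chromosome 19, 2425625 to 2427586), the partner of TIMM8A in a chaperone hexamer, stood at 134 and 119.9 CPM in labelled against 147 and 142 CPM in unlabelled libraries. TIMM8A itself was at 60.8 and 59.4 CPM in labelled and 57.8 and 61.4 CPM in unlabelled libraries, which overlapped. TIMM9 and TIMM10, which form the main carrier-binding hexamer, had 0.22 and 0.03, and for each the groups overlapped. Genes on the other strand also covered 30.1% of the exonic bases of TIMM8B, 26.55% of TIMM9 and 20.1% of TIMM13. TIMM10B shared 13.25% with a gene on its own strand.

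Of the TIM22 and TIM23 complexes, 8 of 9 genes had groups that did not overlap, 5 higher and 3 lower, and none was called. Over all genes tested, 22.2% were higher and 22.4% lower without overlap. ROMO1 (chromosome 20, 35699272 to 35700984), a small inner membrane protein that associates with TIM23, had the smallest p of all members. It stood at 47.7 CPM in each labelled library, against 65.1 and 95.5 CPM in the unlabelled libraries. The labelled values were nearly identical and the distance was set by the unlabelled libraries, with a log2 fold change of -0.75 ± 0.17, an unadjusted p of 7.52e-04 and an edgeR adjusted p of 0.128. TIMM23 (chromosome 10, 45972489 to 46003742), the presequence channel, stood at 77.9 and 85.3 CPM in labelled against 73.1 and 67.0 CPM in unlabelled libraries (0.22 ± 0.13, adjusted p 0.526). TIMM21 (chromosome 18, 74148523 to 74160531), which links TIM23 to TOM and to respiratory chain assembly, stood at 27.8 and 28.5 CPM in labelled against 22.8 and 24.6 CPM in unlabelled libraries (0.25 ± 0.13, adjusted p 0.500). The presequence receptor TIMM50 and the carrier insertase TIMM22 also had higher labelled values, with log2 fold changes of 0.22 and 0.19. The TIM22 subunits TIMM29 and AGK, of which AGK is also a lipid kinase, had lower labelled values at -0.21 and -0.13.

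In the import motor, 3 of 5 genes tested were higher in both labelled libraries and 1 was lower, with none called. Such separation held for 22.2% (higher) and 22.4% (lower) of all genes tested. TIMM44 (chromosome 19, 7926718 to 7943667), which tethers the mtHsp70 chaperone to the channel, stood at 108 and 103 CPM in labelled against 92.9 and 84.9 CPM in unlabelled libraries (0.25 ± 0.13, edgeR adjusted p 0.471; -0.11 when scaled by library size alone). GRPEL1 (chromosome 4, 7058671 to 7068085) and GRPEL2 (chromosome 5, 149345430 to 149354583) encode nucleotide exchange factors of mtHsp70. GRPEL1 stood at 84.8 and 91.1 CPM in labelled against 77.4 and 56.9 CPM in unlabelled libraries (0.38 ± 0.15, adjusted p 0.381). GRPEL2 stood at 118 and 114 CPM in labelled against 82.5 and 97.6 CPM in unlabelled libraries (0.36 ± 0.13, adjusted p 0.344). In each of these 3 genes the labelled libraries lay above the unlabelled ones. PAM16, a J-like regulator of the motor, lay below, at 8.75 and 8.27 CPM in labelled against 11.03 and 12.98 CPM in unlabelled libraries (-0.49 ± 0.21, adjusted p 0.402), and 22.4% of its exonic bases are shared with a readthrough gene. The J-protein DNAJC19 had 0.07. Its paralog DNAJC15 had 6 and 3 fragments in labelled and 3 and 2 in unlabelled libraries, near the floor of 3 fragments, and did not pass the count filter. As a share of fragments outside the mitochondrial chromosome, the 6 motor genes took 0.0440% and 0.0426% in labelled against 0.0357% and 0.0360% in unlabelled libraries, a ratio of 1.21. As a share of all assigned fragments the direction turned, at 0.0321% and 0.0295% in labelled against 0.0325% and 0.0323% in unlabelled libraries, a ratio of 0.951. Scaled by library size alone, the log2 fold changes of GRPEL1 and GRPEL2 were 0.03 and 0.0072.

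**Figure D3:**
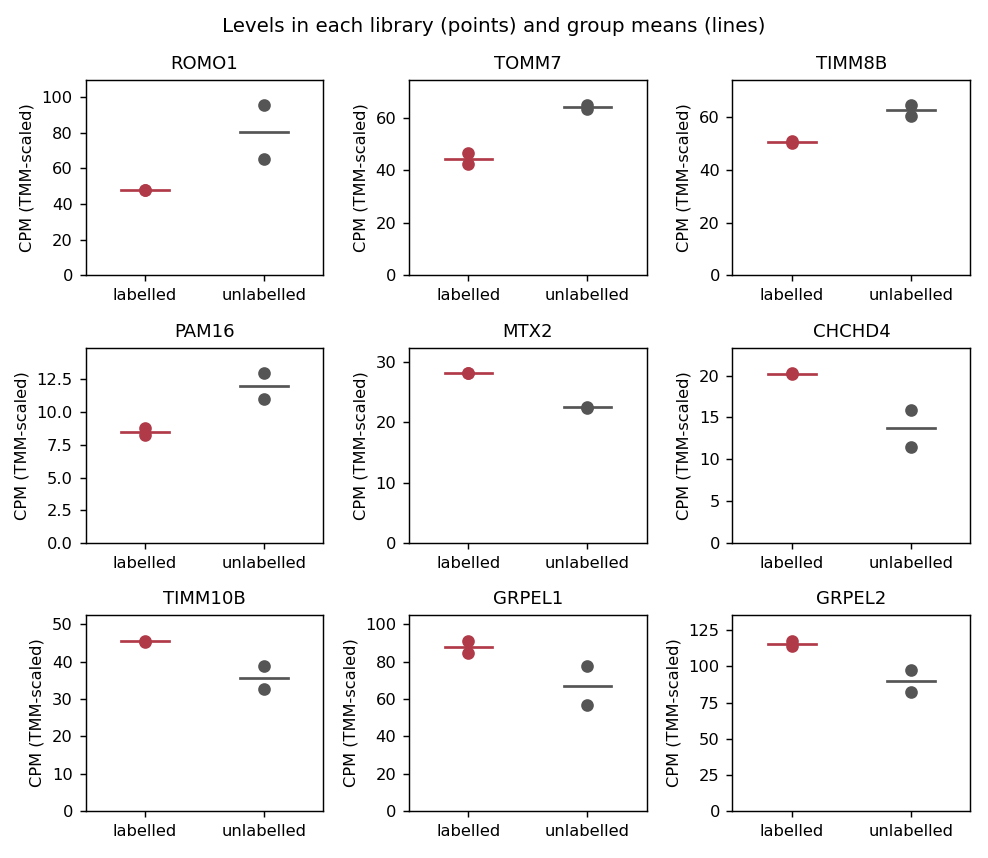
TMM-scaled CPM in each library (points) and group means (lines) for the 9 members with an unadjusted edgeR p under 0.05. The groups do not overlap in any panel, the labelled libraries lie close together, and the ratio between the unlabelled libraries is widest for ROMO1 (65.1 and 95.5 CPM) and CHCHD4 (15.9 and 11.5 CPM).

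Of the insertase and the presequence proteases, none had an unadjusted p under 0.05. OXA1L (chromosome 14, 22766522 to 22773042), which inserts mitochondrially made proteins into the inner membrane, stood at 90.0 and 98.1 CPM in labelled against 87.9 and 80.7 CPM in unlabelled libraries (0.16 ± 0.13, edgeR adjusted p 0.651). PMPCA (chromosome 9, 136410630 to 136427992), the substrate-binding subunit of the matrix processing peptidase, stood at 85.4 and 100.3 CPM in labelled and 92.0 and 84.2 CPM in unlabelled libraries, which overlapped. PMPCB (chromosome 7, 103297407 to 103331818), its catalytic subunit, stood at 60.6 and 65.3 CPM in labelled against 68.8 and 73.9 CPM in unlabelled libraries (-0.18 ± 0.12, adjusted p 0.602). The inner membrane peptidase subunits IMMP1L and IMMP2L had 0.14 and -0.17, and IMMP2L, at 4.01 to 7.09 CPM over the 4 libraries, had the widest interval of the members, from -0.86 to 0.53.

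Which members were called changed when single libraries were left out. Without unlabelled replicate 1, edgeR called 12 members higher and 3 lower, beside 11.6% higher and 7.37% lower of all genes. The 12 were CHCHD4 at a log2 fold change of 0.85, GRPEL1 at 0.66, TIMM10B at 0.51, TIMM22 at 0.45, TIMM50 at 0.43, TOMM40 at 0.42, GFER at 0.38, TIMM44 at 0.35, TIMM23 at 0.32, VDAC1 at 0.29, TOMM70 at 0.28 and GRPEL2 at 0.28, and the 3 were ROMO1 at -0.97, TOMM7 at -0.48 and TIMM8B at -0.32. Without unlabelled replicate 2, it called GRPEL2 (0.49) and TIMM17A (0.34) higher and TOMM7 (-0.54), ROMO1 (-0.44) and TIMM17B (-0.37) lower, beside 2.06% higher and 2.55% lower of all genes. ROMO1, TOMM7 and GRPEL2 were thus called in both of these fits, but with all 4 libraries they missed the threshold. Both fits share the same labelled libraries, whose values for these genes lie on the same side of both unlabelled values. Their shared direction was therefore fixed in advance and is not a replication. Without either labelled library none was called. In these fits the lone library of a group is assumed to vary as the other group does. Without an unlabelled library the spread is that of the labelled pair, which stood closer together (0.07 against 0.23 over members). TOMM7 was called at -0.48 and -0.54, close to its -0.53 with all 4 libraries, so a changed call need not mean a changed estimate.

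Members with short transcripts lay lowest in labelled libraries. Transcript length here is that of the longest coding transcript in GENCODE 29, with a median of 1963 bases over members and 3408 bases over 13508 genes tested that have one. The 7 members with at most 1000 bases were ROMO1, TIMM10, PAM16, TOMM7, IMMP1L, TOMM5 and TIMM8B, and their median log2 fold change was -0.31, with 2 of 7 above 0. All 494 genes tested in that length class had a median of -0.12. Above 1000 and up to 2000 bases the 15 members had a median of 0.03 and all genes 0.00, and above 2000 and up to 3000 bases the 12 members had 0.09, with 9 above 0, and all genes 0.05. Across the 42 members, Spearman's rho between length and log2 fold change was 0.44, and across all genes it was 0.00, with the same 4 libraries behind every point. The number of uridines in the transcript, the base that s4U replaces, gave 0.46 over members and 0.03 over all genes, and it rises with length. One alternative fit removed a trend by library with another length, that of all annotated exons of a gene joined together, which for PAM16 is 2331 bases against a transcript of 722. In that fit ROMO1 stood at -0.55 (edgeR adjusted p 0.178), TOMM7 at -0.48 (0.192), PAM16 at -0.48 (0.414) and TIMM8B at -0.19 (0.562). Of these genes only ROMO1 and TIMM8B moved by more than 0.1. Other members moved as far, among them TIMM10 from 0.03 to 0.19 and TIMM23 from 0.22 to 0.33. The part of transcript length in the difference between outer and inner membrane genes was not tested, and that difference was -0.15 with the trend in exon length removed.

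**Figure D4:**
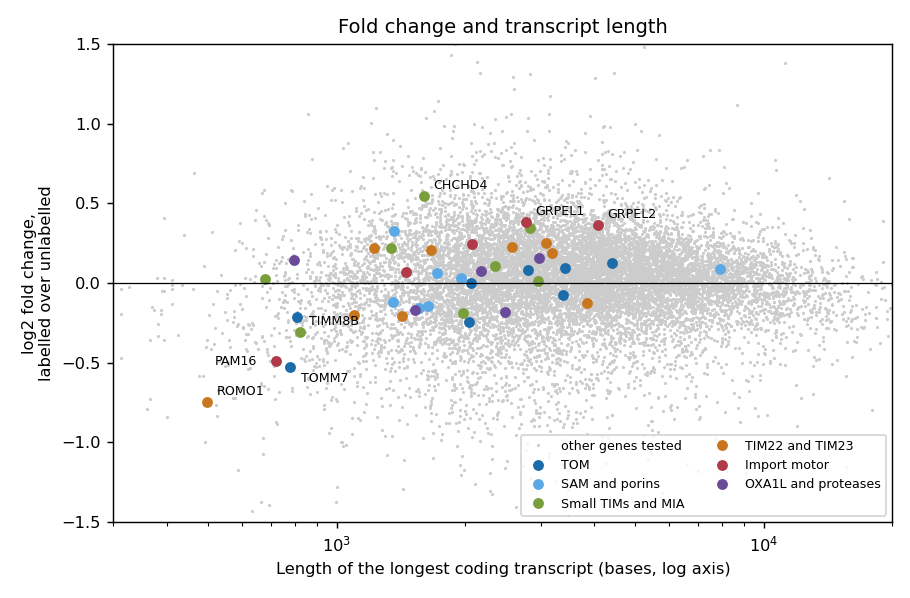
Log2 fold change of labelled over unlabelled libraries against transcript length in bases (log axis), with members coloured by complex and other nuclear genes tested in grey. Of the 7 members with at most 1000 bases, ROMO1, PAM16, TOMM7, TIMM8B and TOMM5 lie below 0 and TIMM10 and IMMP1L above it, and members over 2000 bases lie mostly at or above it.

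Levels of different genes were compared as CPM per kilobase of exon, averaged over the 4 libraries. By the mean over all 4 libraries ROMO1 came first at 91.2 ± 32.1 (SD), followed by TIMM13 at 81.6 ± 7.13, TOMM20 at 65.8 ± 2.03, TOMM40 at 64.2 ± 9.79, VDAC1 at 63.8 ± 8.09, TIMM23 at 63.7 ± 6.51 and VDAC2 at 53.0 ± 5.92. That place rested on the unlabelled libraries: ROMO1 stood at 67.9 and 68.0 in labelled libraries, below TIMM13 at 80.5 and 72.0, and at 92.8 and 136 in unlabelled libraries, above TIMM13 at 88.2 and 85.6. ROMO1 and TIMM13 differed by less than the SD of ROMO1, and the steps between TOMM20, TOMM40, VDAC1 and TIMM23 were smaller than these SDs. Lowest among genes tested was IMMP2L at 1.31 ± 0.339, and DNAJC15 stood at 0.0506. The exon length joins the exons of every annotated transcript, which lowers the value of genes with long rare exons: per kilobase of the longest coding transcript PMPCB stood at 27.2 in place of 3.99, while ROMO1 again had the highest mean over the 4 libraries, at 129, ahead of VDAC1 at 99.6.

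Paralogs differed widely in how much 1 copy exceeded the other. On the scale of CPM per kilobase of exon, TOMM40 exceeded TOMM40L by 10.7 to 12.0 times over the 4 libraries, and IMMP1L exceeded IMMP2L by 3.10 to 5.25 times, or by 7.97 times per kilobase of the longest transcript. VDAC1 exceeded VDAC2 by 1.08 to 1.34 times and VDAC3 by 2.08 to 2.69 times, the second ratio being 1.597 per kilobase of the longest transcript. TIMM8A stood at 0.361 to 0.459 of TIMM8B, and PMPCA at 1.69 to 2.29 times PMPCB, although the 2 peptidase subunits work as a pair. MTX1 stood at 1.27 to 1.89 times MTX3, or 2.87 times per kilobase of the longest transcript. For GRPEL1 over GRPEL2 the ratio was 0.487 to 0.785 per kilobase of exon and 1.11 per kilobase of the longest transcript, so their order depends on the length used. TIMM17A and TIMM17B, alternative channel subunits of TIM23, leaned in opposite directions: TIMM17A stood at 89.4 and 82.4 CPM in labelled and 68.3 and 80.7 CPM in unlabelled libraries, and TIMM17B at 44.9 and 39.4 CPM in labelled and 54.6 and 41.9 CPM in unlabelled libraries. Their ratio per kilobase of exon was 1.48 and 1.55 in labelled and 0.929 and 1.43 in unlabelled libraries, with unlabelled replicate 1 the lowest.

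**Figure D5:**
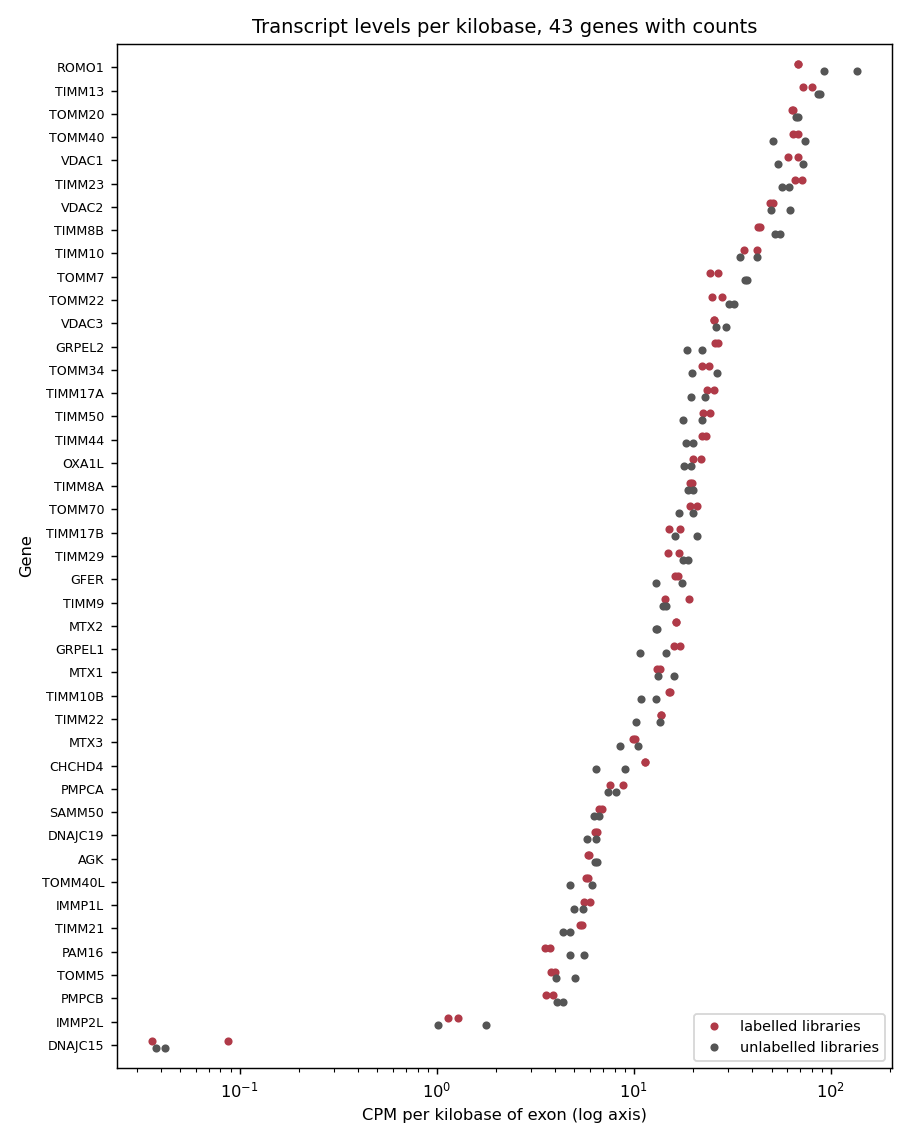
CPM per kilobase of exon (log axis) in labelled and unlabelled libraries for the 43 members with counts, ordered by mean. Levels span from ROMO1 (mean 91.2) to DNAJC15 (mean 0.0506), and for most genes the labelled and unlabelled points lie side by side.

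Genes that cooperate with the import machinery were not called either. The 27 further genes included the motor chaperone HSPA9, cristae organising MICOS genes, further peptidases and cytosolic chaperones. All were tested and 0 passed the edgeR threshold. An unadjusted edgeR p under 0.05 was found for 3, all lower (11.1%, against 11.5% of all genes in either direction and 5.88% lower). The median log2 fold change of the 27 was 0.02. The 3 were MICOS13, a small MICOS subunit, at -0.50 ± 0.14 (edgeR adjusted p 0.259), PITRM1, a peptidase that degrades cleaved presequences, at -0.35 ± 0.13 (0.353), and TIMM23B, a close copy of TIMM23, at -0.49 ± 0.20 (0.399). MICOS13 stood at 28.3 and 35.9 CPM in labelled against 46.6 and 44.5 CPM in unlabelled libraries. HSPA9, which encodes mtHsp70 itself, stood at 309.9 and 359 CPM in labelled against 308 and 269 CPM in unlabelled libraries, a log2 fold change of 0.21 ± 0.15 (adjusted p 0.608).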

How the data were processed

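The authors deposited whole-number fragment counts per gene for 62700 genes, and a second table of counts by assignment status. Per the file headers, counting used featureCounts 1.6.4 on GENCODE 44 with paired fragments and both ends mapped, and neither strand nor multi-mapping was set. STAR 2.7.9a aligned to GRCh38 and DESeq2 1.42.0 was used, as the submitters' processing notes say. Overlapping genes and antisense RNA therefore cannot be told apart, and fragments over shared exons are lost. The exon length per gene is a column of the deposited table.

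Here, counts were tested with edgeR 4.0.16 in R 4.3.3 (filterByExpr, TMM, quasi-likelihood) over 18973 genes, with DESeq2 1.42.0 as an alternative. Standard errors are the log2 fold change over the square root of F, and 95% intervals use the fit's t quantile. Tables and plots used Python 3.11.15, NumPy 2.4.6, pandas 2.3.3 and matplotlib 3.10.9. Precision follows depth: 3 fragments equal 0.244 to 0.520 CPM. Values per library are given, in each class of members, for the 2 with the highest CPM per kilobase and the 2 with the smallest p, and others were named as their values asked. Members and lists were chosen with earlier results of these data known. A further blood marker of the list is not reported here.

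Replicate numbers from the titles were not used to pair the libraries in the main fit. The correlation over genes of the labelled 1 minus 2 with the unlabelled 1 minus 2 differences was -0.0698. With 4 libraries this cannot settle whether libraries of the same number were handled together. The floor of 3 fragments covers counting error only, while the 95% intervals also carry the spread between libraries.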

Additional observations from a re-analysis of the deposited data

How the results depend on the processing

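With library size as the only scaling, the log2 fold changes of all genes centred on a median of -0.37, and 2675 genes (14.1%) and 14 members were lower. Medians were then -0.29 over members, -0.38 over outer and -0.21 over inner membrane genes. Under it every member above 0 in the TMM fit turned negative except CHCHD4 (0.20), GRPEL1 (0.03) and GRPEL2 (0.0072). Among those that turned were TOMM40 (-0.25), VDAC1 (-0.32), MTX2 (-0.031), TIMM10B (-0.0090), TIMM23 (-0.14), TIMM21 (-0.11), TIMM44 (-0.11), OXA1L (-0.20) and PMPCA (-0.28). Over all genes the TMM fit called 51 higher and 3 lower. The lower calls numbered 5 with median-ratio size factors, 6 with the length trend removed and 19 with DESeq2. The higher calls numbered 27 with the mitochondrial chromosome left out. With no filter on low counts there were 183 higher and 119 lower genes of 39689, and 1 member, ROMO1, lower (-0.71).

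Whether the numbers in the titles pair the libraries is not known, and the calls differed between the fits with and without pairing. The fit with a replicate block called 140 genes higher (0.738%) and 96 lower (0.506%). It called 2 members lower, ROMO1 at -0.73 ± 0.16 (SE; edgeR adjusted p 6.70e-04) and TOMM7 at -0.53 ± 0.15 (0.0490). In the main fit they stood at -0.75 ± 0.17 and -0.53 ± 0.12. The estimates thus hardly moved, and the SE of TOMM7 was larger with the block. Why the calls differed was not tested.

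Leaving out 1 library each gave 49 to 2440 genes higher and 9 to 1545 lower, 0 to 12 members higher and 0 to 3 lower. The members' median was -0.022 to 0.15, the outer membrane median -0.11 to 0.033 and the inner membrane median 0.08 to 0.12. TOMM40 ran from -0.14 to 0.42, VDAC1 from -0.15 to 0.29, VDAC2 from -0.30 to 0.037 and PMPCA from -0.033 to 0.21. In all, the sign differed between these fits for 14 of 42 members, the others being GFER (-0.08 to 0.38), IMMP2L (-0.52 to 0.28), MTX1 (-0.26 to 0.03), MTX3 (-0.02 to 0.25), TIMM10 (-0.10 to 0.22), TIMM17B (-0.37 to 0.03), TOMM34 (-0.18 to 0.26), TOMM40L (-0.08 to 0.32), TIMM8A (-0.0008 to 0.06) and VDAC3 (-0.19 to 0.0034). VDAC1 was -0.05 without labelled replicate 2, and GRPEL1 ran from 0.19 to 0.66. The cause was not tested. Depth limits DNAJC15 and IMMP2L most.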

Other observations

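Annotated pseudogenes named after import genes took few fragments. Of 64 such pseudogenes, TOMM40P4 on chromosome 2 held most in labelled libraries, with 86 and 129 fragments in labelled and 71 and 57 in unlabelled libraries. VDAC1P8 on chromosome 6 held most in unlabelled libraries, with 65 and 89 in labelled and 83 and 77 in unlabelled libraries. These counts are uncertain, because fragments that map equally well to a gene and its copy are left out. TIMM23 has a close copy, TIMM23B, and 4.90% of the 1123 windows of 100 bases in its GENCODE 29 transcript occur letter for letter in a TIMM23B transcript. TIMM23B stood at 15.3 and 14.4 CPM in labelled and 16.5 and 25.8 CPM in unlabelled libraries.

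Of the cytosolic chaperones that guide precursors, HSP90AB1 stood at 1214 and 1474 CPM in labelled and 1305 and 926 CPM in unlabelled libraries, HSPA8 at 819.5 and 829 CPM in labelled and 851 and 662 CPM in unlabelled libraries, and for each the groups overlapped. DNAJA1, a J-protein partner of HSPA8, stood at 228 and 247 CPM in labelled against 210.5 and 174 CPM in unlabelled libraries, with 0.31 ± 0.14 as log2 fold change and an edgeR adjusted p of 0.447. These genes were chosen after their values were seen.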
